A study of Mus musculus with 35 samples.

Results

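The synaptonemal complex genes described here were Sycp1, Sycp2, Sycp3, Syce1, Syce2, Syce3, Tex12, Hormad1, Hormad2 and Rec8, taken by name as 10 of the 24411 gene rows of the count tables. Each of the 10 was present in every table and passed the filter on low counts in every comparison. RNA was measured in adult mice of mixed C57Bl/6J and SV129 strain, in isolated pachytene spermatocytes (Spc), in isolated round spermatids (RS) and in isolated chromatoid bodies (CB), which are RNA and protein granules in the cytoplasm of round spermatids. Smg6-cKO animals (cKO) were Smg6(fx/fx);Ngn3Cre+, in which Cre driven by the Neurogenin 3 promoter in early postnatal spermatogonia removes exon 9 of Smg6, the gene of an endonuclease of nonsense-mediated mRNA decay. Control animals (CTRL) were littermates without Cre, of genotype Smg6(fx/fx);Ngn3Cre- or Smg6(fx/wt);Ngn3Cre-, and so carried loxP-flanked alleles as well. There were 3 libraries in each of the groups Spc CTRL, Spc cKO, RS CTRL and RS cKO, 4 libraries of CB CTRL and 3 of CB cKO. Cell fractions were enriched on BSA gradients, and by the authors' DAPI staining they were not fully pure. The sample labels give both testes of 1 mouse per library, the methods give several testes per isolation, and each CB library pooled 2 to 4 mice. Spermatogenesis in the cKO stops at the round spermatid stage.

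The synaptonemal complex is a protein ladder that holds homologous chromosomes together along their length during meiotic prophase. REC8, a meiotic cohesin, and the HORMA-domain proteins HORMAD1 and HORMAD2 sit on the chromosome axes, and SYCP2 and SYCP3 build the lateral elements on them. SYCP1 forms the transverse filaments that bridge the axes, and SYCE1, SYCE2, SYCE3 and TEX12 make up the central element where the filaments meet. The complex is complete in pachytene spermatocytes and is taken apart before the meiotic divisions, so round spermatids no longer contain it.

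The 10 genes lie on 9 chromosomes of GRCm38. Among the axis and lateral element genes, Rec8 is at chr14:55618037-55625395, Hormad1 at chr3:95559677-95587671, Hormad2 at chr11:4345814-4441105, Sycp2 at chr2:178345293-178407685 and Sycp3 at chr10:88459569-88473236. The transverse filament gene Sycp1 is at chr3:102818499-102936100. The central element genes are Syce1 at chr7:140777229-140787852, Syce2 at chr8:84872111-84888221, Syce3 at chr15:89390174-89410503 and Tex12 at chr9:50556819-50561325. Sycp3 shares 660 exonic bases with Chpt1 on the opposite strand, which stranded counting separates, and no other member overlaps the exons of another gene.

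Promoters of meiotic genes are known targets of STRA8 with MEIOSIN, the pair of factors that starts the meiotic program, and the sequences below show where its core letters occur in front of these genes. RefSeq promoter windows of GRCm38.p6, from 250 bases before to 50 bases after each transcription start, were found for all 10 genes, 13 windows in all, and searched on both strands. The letters CNCCTCAG were present in 4 of the 13 member windows, from 4 of the 10 genes, and in 7.94% of all 32851 windows. The 4 stretches are written 5′ to 3′ on the strand of the gene, with the match, which lies on the opposite strand in each, in capitals.
Sycp1, chr3:102936053-102936076, minus strand: aggaggttCTGAGGGGaagctcac
Syce2, chr8:84872211-84872234, plus strand: agagggcgCTGAGGCGggaaaaga
Tex12, chr9:50561260-50561283, minus strand: ctgcggctCTGAGGCGgcaggtcg
Hormad2, chr11:4441176-4441199, minus strand: aaggcctgCTGAGGGGccaacctt
The E-box letters CACGTG were found in 6 of the 13 member windows, from 5 genes, and in 7.15% of all windows. Hormad1 and Sycp3 each held a pair of them, shown here with the match in capitals.
Hormad1, chr3:95559612-95559633, plus strand: gggtgcgcCACGTGccagtgac
Hormad1, chr3:95559649-95559670, plus strand: gcactgcgCACGTGctgaccgg
Sycp3, chr10:88459515-88459536, plus strand: ttggctccCACGTGagaacggg
Sycp3, chr10:88459536-88459557, plus strand: gcatggagCACGTGctaggagg
GCGGGA, the letters of the E2F motif, occurred in 8 of the 13 member windows, from 6 genes, and in 20% of all windows, and in Syce2 its match shares bases with the CNCCTCAG match. TGACGTCA, the CRE motif bound by CREM in spermatids, was in none of the member windows and in 1.79% of all windows. These matches describe the letters only.

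Gene counts summed to between 36419197 and 47355837 per library in Spc and RS and to between 2705277 and 12103906 in CB, where the ribosomal row Rn45s took 36.5% to 52.7%. Smg6 itself did not pass the test in any comparison of cKO with CTRL (log2 fold change 0.22 in Spc, -0.01 in RS and -0.03 in CB), and a count over the whole gene does not check the loss of exon 9. Marker genes were summed in CPM, read counts relative to library size after TMM scaling over the 12 Spc and RS libraries. The 10 late spermatid markers (protamines, transition proteins and sperm tail genes) summed to 30789 to 40817 in RS CTRL and to 2046 to 2097 in RS cKO, and to 3778 to 7772 in Spc CTRL and 452 to 1469 in Spc cKO. The 7 round spermatid markers summed to 2478 to 2553 in RS CTRL and 887 to 1122 in RS cKO, and the 7 pachytene markers to 2971 to 3113 and 2508 to 2721. Early prophase markers summed to 27.6 to 39.0 in RS CTRL and 51.5 to 79.6 in RS cKO, and spermatogonial markers to 40.6 to 49.1 and 66.6 to 103. Leydig cell markers summed to 115 to 365 in Spc CTRL, 550 to 1140 in Spc cKO, 8.33 to 8.45 in RS CTRL and 29.7 to 310 in RS cKO, Sertoli cell markers to 320 to 874, 186 to 270, 60.0 to 75.5 and 86.7 to 240, and macrophage markers in RS to 20.4 to 28.7 in CTRL and 135 to 213 in cKO. No marker was at 0 throughout any Spc or RS group. The part of these cell populations in the member differences was not tested. In such bulk libraries, fewer cells of a type and less RNA per cell cannot be told apart.

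In control spermatocytes all members were expressed, and Syce1 stood highest for its length. On the scale of CPM per kilobase of exon, Syce1 had 285 ± 4.40 (mean ± SD, n = 3), followed by the lateral element genes Sycp3 with 120 ± 9.77 and Sycp2 with 99.1 ± 5.42. The axis gene Hormad1 had 60.4 ± 5.83, Syce3 52.0 ± 11.6, Sycp1 47.2 ± 1.82, Syce2 38.5 ± 14.3 and Rec8 31.2 ± 10.97. Neighbours in the order of these 5 overlapped in their libraries, so their ranks were not resolved. Tex12, with 17.2 ± 0.875, and Hormad2, with 9.51 ± 1.07, were the lowest and were separated from the rest and from each other.

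The order differed in control round spermatids. Syce1 again had the highest level per kilobase, 338, and Syce2 came next with 174, followed by Rec8 with 119 and Syce3 with 115, whose libraries overlapped. Sycp3 had 39.4, Sycp2 35.4 and Sycp1 28.4, each overlapping its neighbour, then Hormad1 17.8, and Tex12 with 4.50 and Hormad2 with 3.81 overlapped at the bottom. In RS cKO the order after Syce1 with 262 was Sycp2 69.0, Sycp3 66.6, Rec8 36.6, Syce3 35.8, Hormad1 35.6, Sycp1 29.4, Syce2 22.7, Hormad2 9.37 and Tex12 7.60. Here Sycp2 and Sycp3 overlapped, as did Rec8, Syce3 and Hormad1, and Hormad2 and Tex12, and Rec8 also overlapped Sycp1. The 10 members together summed to 1527 to 1589 CPM in Spc CTRL, 1650 to 1939 in Spc cKO, 1323 to 1489 in RS CTRL and 1131 to 1197 in RS cKO.

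**Figure D1:**
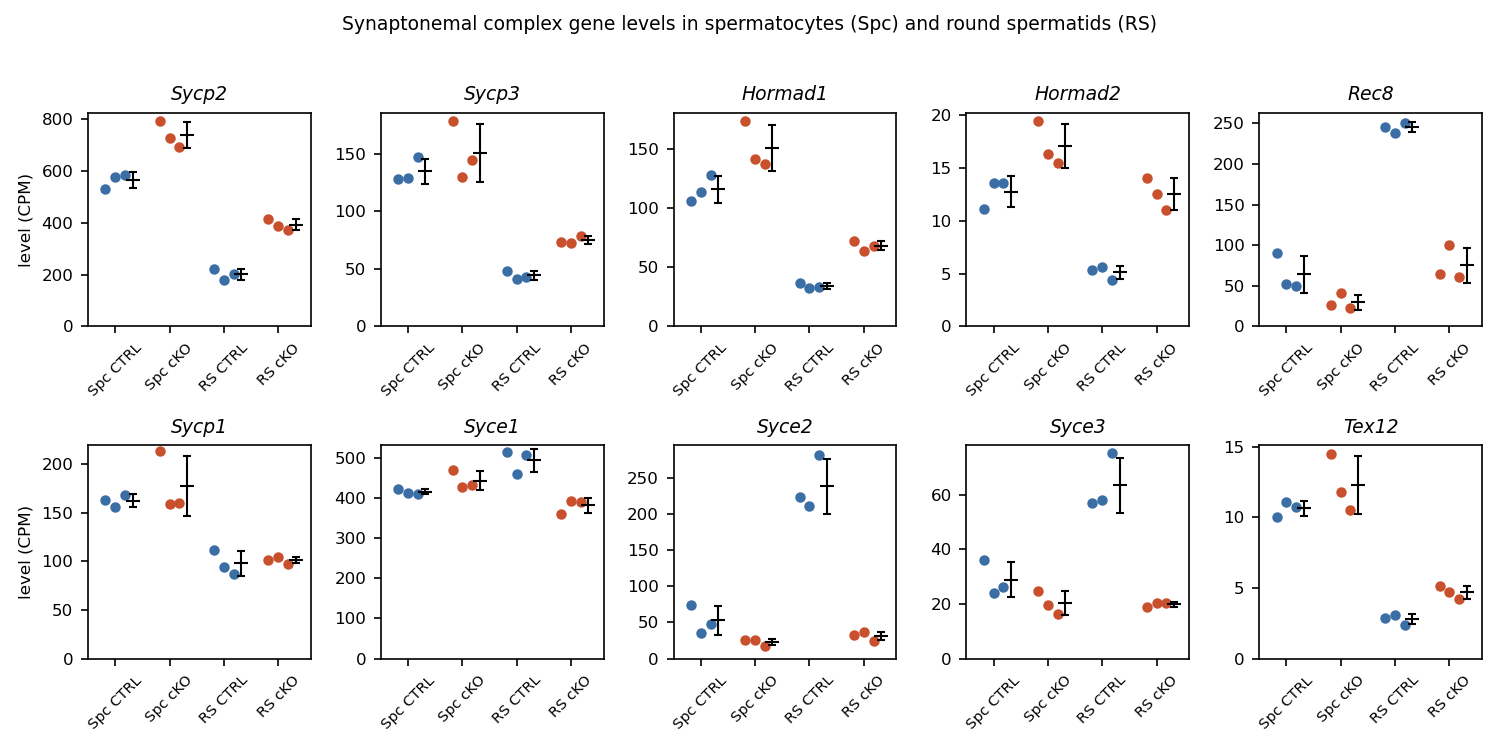
Level of each synaptonemal complex gene in every Spc and RS library, in CPM on linear axes from 0, with TMM scaling over the 12 libraries. Points are libraries (CTRL blue, cKO red), and the bars beside them are group means ± SD. Syce2, Syce3 and Rec8 were highest in RS CTRL, and Sycp2, Hormad1 and Hormad2 were highest in Spc cKO.

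The first question was how the RNA of these genes changes from spermatocytes to round spermatids in control animals. The 6 genes Sycp1, Sycp2, Sycp3, Tex12, Hormad1 and Hormad2 were lower in RS CTRL than in Spc CTRL, and Syce2, Syce3 and Rec8 were higher, beside 39.7% of all 17046 genes tested that were lower and 36.2% that were higher. In what follows, per-library values are CPM scaled within the libraries of the comparison at hand, the scale on which the fold change was fitted, so they differ slightly between comparisons. Adjusted p-values come from the quasi-likelihood test of edgeR, adjusted by the Benjamini-Hochberg method over all genes tested, and a gene passed at 0.05 or less.

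Among the axis and lateral element genes, Sycp2, which forms the lateral element with SYCP3, had 509, 546 and 552 CPM in Spc CTRL and 191, 157 and 175 in RS CTRL (log2 fold change -1.62 ± 0.094 SE, adjusted p = 3.65e-05). Sycp3 had 123, 122 and 139 CPM against 41.7, 36.2 and 37.1 (-1.74 ± 0.095, adjusted p = 3.16e-05). Hormad1, whose protein recruits the machinery of recombination and checkpoint to unsynapsed axes, had 102, 108 and 121 CPM against 31.9, 28.7 and 28.4 (-1.89 ± 0.097, adjusted p = 3.06e-05). All 3 genes showed groups that were far apart relative to the spread of libraries. Hormad2, its paralog, had 10.7, 12.9 and 12.8 CPM in Spc CTRL and 4.61, 4.91 and 3.79 in RS CTRL (-1.45 ± 0.16, adjusted p = 0.000238). Rec8 went the other way, with 86.7, 49.8 and 46.7 CPM in Spc CTRL and 212, 210.2 and 216 in RS CTRL (1.80 ± 0.23, adjusted p = 0.000395). Its 3 RS libraries were close together, and the first Spc library stood above the other two.

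The transverse filament gene Sycp1 had 157, 147 and 159 CPM in Spc CTRL and 96.2, 82.9 and 75.0 in RS CTRL (log2 fold change -0.87 ± 0.10, adjusted p = 0.000308). The central element genes did not move together. Tex12, whose protein assembles with SYCE2, had 9.67, 10.5 and 10.2 CPM against 2.45, 2.73 and 2.07 (-2.07 ± 0.16, adjusted p = 8.53e-05), the largest fall among the members. Syce2 had 71.6, 33.8 and 45.6 CPM against 192, 185 and 242 (2.04 ± 0.27, adjusted p = 0.00044), so the gene of TEX12's partner rose. Syce3 had 34.7, 22.6 and 24.8 CPM against 49.0, 51.2 and 64.5 (1.00 ± 0.19, adjusted p = 0.00195). Syce1 had 408, 391 and 389 CPM against 445, 406 and 436, groups that overlapped, and did not pass (0.11 ± 0.071, adjusted p = 0.176), while with library size alone as the scale its value was -0.34 (adjusted p = 0.0015), and with DESeq2 it passed as higher (0.18, adjusted p = 0.0358).

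Thus 9 of the 10 members passed, and so did 75.9% of all genes tested. The median member had a log2 fold change of -1.16, against -0.08 for all genes tested, and with library size alone the median of all genes was -0.54. The share of higher genes among all that passed was 47.7% with TMM and 32.2% with library size alone. A second rule asked for a change of 1.5 or more in size on the log2 scale as well. It held for 2 members that were higher and 4 that were lower, beside 17% of all genes in each direction. The library groups did not overlap for 9 members, and this was so for 80.6% of all genes. In the first Spc CTRL library, where Syce2, Syce3 and Rec8 were highest of the 3, the late spermatid markers also had their highest sum of the group, 7772 CPM, and the part of this in the values was not tested. None of the 9 calls was lost when any 1 library was left out.

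In cKO animals, 7 members were lower in RS than in Spc and 1 was higher, beside 26.4% and 18.9% of the 17709 genes tested (45.4% in either direction). Sycp2 had 860.1, 808 and 788 CPM in Spc cKO and 447, 433 and 405 in RS cKO (log2 fold change -0.93 ± 0.066, adjusted p = 0.000135). Hormad1 had 188, 158 and 157 CPM against 78.0, 71.6 and 74.3 (-1.17 ± 0.095, adjusted p = 0.000195). The fall of both was clear of the library spread. Sycp3 had 193, 144 and 165 CPM against 79.0, 80.3 and 85.4 (-1.03 ± 0.11, adjusted p = 0.00051), and Sycp1 had 231, 177 and 181 against 109.6, 116 and 106 (-0.83 ± 0.11, adjusted p = 0.0012). Tex12, at 15.7, 13.1 and 11.9 CPM against 5.52, 5.27 and 4.57, had the largest fall again (-1.41 ± 0.18, adjusted p = 0.000885). For these genes the lowest Spc library lay above the highest RS library.

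Rec8 was the only member that passed as higher, with 28.1, 44.9 and 25.5 CPM in Spc cKO and 69.8, 112 and 65.5 in RS cKO (log2 fold change 1.32 ± 0.27, adjusted p = 0.00666). The second library of each cKO cell type had the highest Rec8 of its group. It also had the highest sum of round spermatid markers (702 CPM beside 579 and 467 in Spc cKO, and 1122 beside 887 and 912 in RS cKO). Its late spermatid sum was the highest in Spc cKO (1469 CPM beside 1067 and 452) but the lowest in RS cKO (2046 beside 2097 and 2096). The part of these markers in the values was not tested. Syce2 had 27.5, 28.8 and 20.3 CPM against 35.1, 40.2 and 27.1 and did not pass (0.42 ± 0.19, adjusted p = 0.104). It did pass without RS cKO replicate 3 (0.57, adjusted p = 0.0417), with library size alone (0.56, adjusted p = 0.0392) and with replicate number as a block (0.42, adjusted p = 0.0107). Syce3, with 27.0, 21.9 and 18.6 CPM against 20.3, 22.5 and 22.2, had nearly the same level in both cell types (-0.06 ± 0.16, adjusted p = 0.787). Both genes had overlapping groups. Syce1 had 511, 476 and 492 CPM against 389.8, 438 and 425 (-0.24 ± 0.067, adjusted p = 0.0225) and Hormad2 21.1, 18.1 and 17.6 against 15.2, 14.0 and 12.01 (-0.46 ± 0.15, adjusted p = 0.0364).

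The last pair of calls was not firm. Syce1 no longer passed without any 1 of the Spc cKO replicates 1 (-0.15, adjusted p = 0.151), 2 (-0.19, 0.0933) and 3 (-0.24, 0.0531) or the RS cKO replicates 1 (-0.12, 0.159) and 3 (-0.24, 0.0623). Hormad2 no longer passed without Spc cKO replicate 1 (-0.32, adjusted p = 0.175) or 2 (-0.42, 0.0980), or RS cKO replicate 1 (-0.46, 0.0732), 2 (-0.47, 0.0733) or 3 (-0.37, 0.102). Both also lost their calls with DESeq2 size factors in edgeR (adjusted p = 0.0870 for Syce1 and 0.0621 for Hormad2), with library size alone (0.109 and 0.121), without the count filter (0.0747 and 0.0710) and with transcript counts summed per gene (0.0673 and 0.0577), and Syce1 with the DESeq2 test as well (0.124). No member was past a log2 fold change of 1.5 in either direction by edgeR, where 3.27% of all genes were higher and 3.79% lower. The members' median was -0.65 against 0.01 for all genes, with 8 members whose groups did not overlap beside 58.7% of all genes. The share of higher genes among all calls was 41.7% with TMM and 55% with library size alone.

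**Figure D2:**
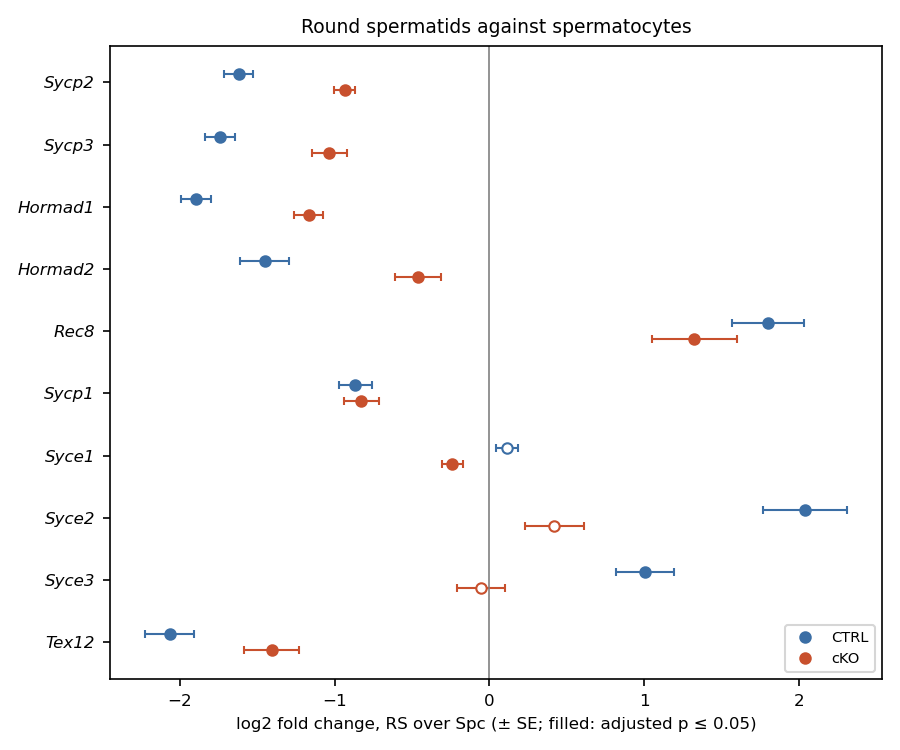
Log2 fold change of round spermatids against pachytene spermatocytes for each gene, in CTRL and in cKO, with bars of 1 SE from edgeR and filled points for an adjusted p of 0.05 or less. Syce2 stood at 2.04 in CTRL and 0.42 in cKO, and Syce3 at 1.00 and -0.06, whereas Sycp1 was at -0.87 and -0.83.

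The next question was how loss of Smg6 changes these RNAs within each cell type, and the CTRL libraries here are those used above. In spermatocytes, 7 of the 10 members did not pass the test, Sycp2 was higher in cKO, and Syce2 and Rec8 were lower, beside 14% of the 17321 genes tested that were higher, 14.1% that were lower and 28.2% in all. Sycp2 had 605, 645 and 655 CPM in Spc CTRL and 808, 773 and 731 in Spc cKO (log2 fold change 0.28 ± 0.066, adjusted p = 0.0226). Syce2 had 85.2, 39.9 and 54.0 CPM against 25.9, 27.5 and 18.8 (-1.31 ± 0.29, adjusted p = 0.0179), and Rec8 had 103, 58.9 and 55.4 against 26.4, 43.0 and 23.6 (-1.22 ± 0.31, adjusted p = 0.0284). The groups of all 3 genes were apart, and in Syce2 and Rec8 the spread within CTRL came from a high first library.

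Syce3, the small central element gene, showed 41.2, 26.7 and 29.4 CPM against 25.3, 21.0 and 17.3 and missed the threshold (-0.61 ± 0.21, adjusted p = 0.066). It passed with DESeq2 (adjusted p = 0.0366) and with replicate number as a block (adjusted p = 0.0391). Hormad1 had 121, 128 and 143 CPM against 177, 151 and 145 (0.27 ± 0.11, adjusted p = 0.0927), and Hormad2 had 12.7, 15.2 and 15.2 against 19.8, 17.3 and 16.3 (0.31 ± 0.14, adjusted p = 0.144). In these 3 genes too the libraries of the groups did not overlap. The remaining 4 members had log2 fold changes close to 0, namely Sycp3 0.05 (adjusted p = 0.766), Sycp1 0.01 (adjusted p = 0.942), Syce1 -0.02 (adjusted p = 0.853) and Tex12 0.09 (adjusted p = 0.672), each with groups that overlapped.

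The members' median was 0.03, beside -0.01 for all genes. No member was past a log2 fold change of 1.5 in edgeR, beside 3.41% of all genes that were higher and 5.1% that were lower by that rule. Groups did not overlap for 6 members and for 47.7% of all genes. All 3 calls depended on single libraries. Sycp2 did not pass without Spc CTRL replicate 2 (0.29, adjusted p = 0.0524) or 3 (0.30, 0.0601), or without Spc cKO replicate 1 (0.26, 0.0534). Syce2 did not pass without Spc cKO replicate 1 (-1.35, adjusted p = 0.0655) or 3 (-1.14, 0.0529), nor did Rec8 without replicate 1 (-1.11, 0.104) or 3 (-1.04, 0.0791). The late spermatid marker sums differed in the same direction as Syce2 and Rec8, with all 10 markers lower in Spc cKO. None of the 7 round spermatid markers passed (median -0.64), with sums of 613 to 956 CPM in CTRL and 467 to 702 in cKO. Pachytene markers summed to 3546 to 3898 CPM in CTRL and 3934 to 4390 in cKO, with 1 higher and 1 lower of 7. Early prophase markers summed to 32.1 to 38.8 and 50.1 to 57.8, with 1 of 5 higher. Spermatogonial markers summed to 50.1 to 62.9 and 60.0 to 105, with 1 of 7 higher. Of the somatic markers in Spc cKO, 7 of 8 Sertoli markers were lower (median -2.21), 3 of 6 Leydig markers higher (median 1.56), and 5 of 6 macrophage markers higher and 1 lower, with macrophage sums of 26.1 to 38.9 CPM in CTRL and 33.7 to 46.0 in cKO. The part of all these in the member values was not tested.

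In round spermatids the members divided into groups that moved in opposite directions. Syce2, Syce3, Rec8 and, by less, Syce1 were lower in cKO, and Sycp2, Sycp3, Tex12, Hormad1 and Hormad2 were higher. These 9 of 10 stood beside 72.7% of the 17492 genes tested, 38.4% higher and 34.3% lower. Syce2 had 204, 193 and 259 CPM in RS CTRL and 30.1, 33.4 and 23.1 in RS cKO, the largest change of any member (log2 fold change -2.92 ± 0.16, adjusted p = 2.24e-06). Rec8 had 226, 219 and 230.2 CPM against 60.0, 92.6 and 56.0 (-1.69 ± 0.18, adjusted p = 6.68e-05), and Syce3 had 52.0, 53.4 and 68.9 against 17.4, 18.7 and 18.9 (-1.66 ± 0.13, adjusted p = 1.05e-05). In each of the 3 genes every cKO library was below every CTRL library. The comparison of cell types in CTRL uses the same RS CTRL libraries, and its log2 fold changes for these genes, 2.04, 1.80 and 1.00, stand beside -2.92, -1.69 and -1.66 here. Syce1 had 473, 423 and 465 CPM against 335, 364 and 363 (-0.36 ± 0.067, adjusted p = 0.00166), a direction that turned with library size alone as the scale (0.26, adjusted p = 0.00158).

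The higher genes were those of the axis and lateral element other than Rec8, with Tex12. Sycp2 had 203, 164 and 187 CPM in RS CTRL and 384, 359.6 and 346 in RS cKO (log2 fold change 0.98 ± 0.088, adjusted p = 2.94e-05). Hormad1 had 33.9, 29.9 and 30.3 CPM against 67.1, 59.4 and 63.5 (1.01 ± 0.089, adjusted p = 2.61e-05). Hormad2 had 4.90, 5.12 and 4.05 CPM against 13.05, 11.6 and 10.3, the largest rise among the members (1.31 ± 0.16, adjusted p = 0.000177). None of these 3 had overlapping groups. Sycp3 had 44.3, 37.7 and 39.6 CPM against 67.9, 66.7 and 73.0 (0.77 ± 0.088, adjusted p = 0.000109), and Tex12 had 2.60, 2.84 and 2.21 against 4.75, 4.38 and 3.91 (0.77 ± 0.20, adjusted p = 0.00763). Sycp1, the transverse filament gene, had 102, 86.4 and 80.1 CPM against 94.2, 96.5 and 90.4, overlapping groups, and did not pass (0.06 ± 0.097, adjusted p = 0.567), while with library size alone it passed as higher (0.68, adjusted p = 0.000361).

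Past a log2 fold change of 1.5, 3 members were lower, beside 11.6% of all genes, and none was higher, beside 14.8%, and the largest rise was Hormad2 at 1.31. With library size alone, 3 were higher past it (Hormad2 1.93, Hormad1 1.63 and Sycp2 1.60) and 1 lower (Syce2 -2.30), with Rec8 at -1.08 and Syce3 at -1.04. The members' median was 0.42, against 0.11 for all genes with TMM and 0.73 with library size alone, a scale that moved the share of higher genes among all calls from 52.8% to 76%. Relative to these medians, Syce1 was lower on both scales. The 9 members that passed were those without overlap between groups, beside 76.9% of all genes. No call was lost when any 1 library was left out. All 10 late spermatid and all 7 round spermatid markers were lower in RS cKO, 3 pachytene markers were higher and 2 lower of 7, 4 of 5 early prophase markers were higher, and 5 of 7 spermatogonial markers were higher and 1 lower. All 6 Leydig (median 4.22), all 6 macrophage (median 3.34) and all 7 tested Sertoli markers (median 1.29) were higher in RS cKO too. The part of these markers in the member differences was not tested.

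The difference between the genotype effects was tested itself, as the effect of cKO in RS minus that in Spc. The same term is the difference between RS and Spc in cKO minus that in CTRL. It was positive for Hormad2 (0.88 on the log2 scale, adjusted p = 0.00778), Hormad1 (0.62, 0.00814), Sycp3 (0.59, 0.0142) and Sycp2 (0.58, 0.00415). It was negative for Syce2 (-1.74, adjusted p = 0.00319), Syce3 (-1.18, 0.00471) and Syce1 (-0.46, 0.00298). Rec8 had -0.59 (adjusted p = 0.226), so its decrease was not shown to differ between cell types, although without Spc CTRL replicate 1 the value was -0.92 (adjusted p = 0.0424). Tex12 had 0.55 (adjusted p = 0.0708) and passed without Spc cKO replicate 1 (0.69, adjusted p = 0.0346) or RS cKO replicate 3 (0.68, 0.0492). It also passed with DESeq2 (0.62, adjusted p = 0.0265) and with library size alone (1.26, adjusted p = 0.00104). Sycp1 had -0.07 (adjusted p = 0.743). The counts of 4 positive and 3 negative members stood beside 19% and 24.1% of the 18171 genes tested (43.1% in all), and the members' median of 0.24 beside -0.13. Past 1.5 in size there was 1 negative member, Syce2, beside 2.84% of all genes, and no positive one by edgeR, beside 8.05%. With library size alone the median of all genes was 0.58, Syce1 had 0.24 and Sycp1 0.64, Syce3 no longer passed (-0.46, adjusted p = 0.109), the 1 member past 1.5 was Hormad2 (1.59) while Syce2 was at -1.03, and 7 members were positive and 1 negative, as the share of positive values among all calls went from 44.2% to 93.7%.

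**Figure D3:**
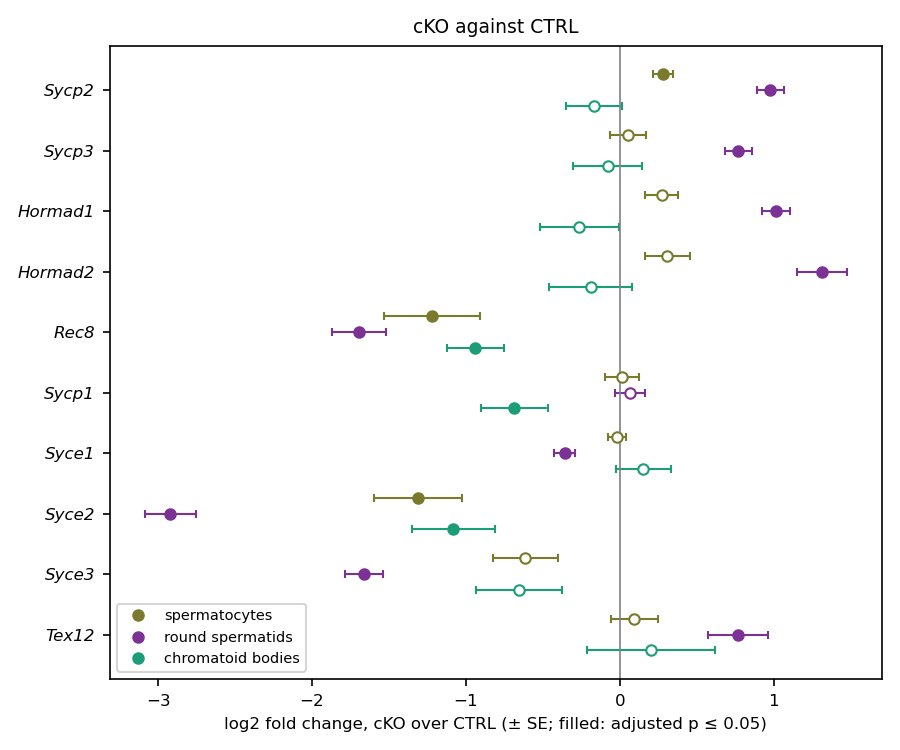
Log2 fold change of cKO against CTRL for each gene in Spc, RS and CB, with bars of 1 SE from edgeR and filled points for an adjusted p of 0.05 or less. Syce2 was below 0 in all 3 (-1.31, -2.92 and -1.08), as was Rec8 (-1.22, -1.69 and -0.94), while Hormad2 was at 0.31, 1.31 and -0.19.

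Transcripts were counted in separate tables in which a read pair that fits several transcripts is divided equally among them. Transcripts of a gene therefore share the counts of their common exons, and likeness between their fold changes follows from this sharing. Their levels can still differ, as for Sycp2-201 with 323 CPM and Sycp2-204 with 23.2 in Spc CTRL. The tables held 32 transcripts of the members, tested in both cell types. In RS, 18 were higher in cKO and 10 lower, beside 38.9% and 36% of all transcripts tested, and the 4 without a call were those of Sycp1 (log2 fold change 0.02 to 0.25). The log2 fold changes ran from -2.71 to -2.88 for the 4 of Syce2, from -1.58 to -1.62 for the 3 of Rec8 and from 1.01 to 1.46 for the 6 of Hormad2. The transcripts annotated as targets of nonsense-mediated decay, the pathway of SMG6, were Sycp3-202 (0.85), Hormad2-201 (1.41) and Syce2-201 (-2.88), and these counts cannot separate them from the coding transcripts of their genes. The single transcript of Syce1 had -0.28 (adjusted p = 0.00553), which did not pass without RS cKO replicate 1 (-0.11, adjusted p = 0.142), 2 (-0.17, 0.0861) or 3 (-0.18, 0.0699).

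In Spc, 4 transcripts were higher, all of Sycp2 (log2 fold change 0.28 to 0.47), and 6 lower, 4 of Syce2 and 2 of Rec8 (-1.13 to -1.32), beside 16.1% and 12.5% of all transcripts. The medians over member transcripts were 0.07 in Spc and 0.85 in RS, beside 0.01 and 0.06 over all transcripts. Leaving out single Spc libraries moved these counts. There were 1 higher and 6 lower without Spc CTRL replicate 2, 1 and 0 without Spc CTRL replicate 3, 1 and 0 without Spc cKO replicate 1 and 2 and 0 without Spc cKO replicate 3.

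**Figure D4:**
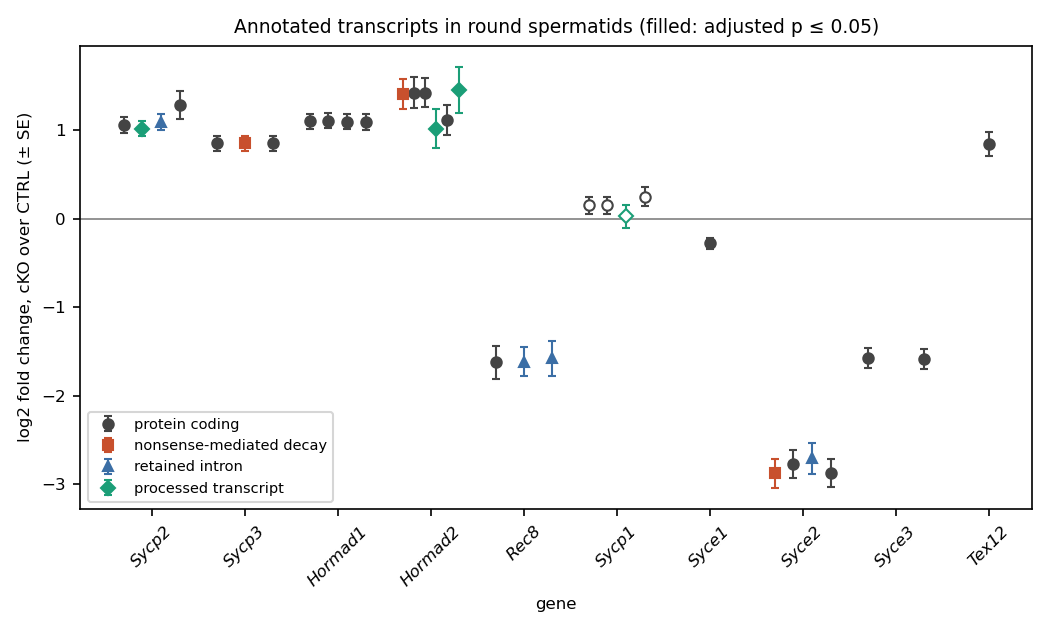
Log2 fold change of cKO against CTRL in RS for the 32 transcripts of the synaptonemal complex genes, grouped by gene and coloured by annotation class, with bars of 1 SE and filled points for an adjusted p of 0.05 or less. Transcripts of a gene share read pairs that were divided equally among them, which by itself places them close together, so the plot does not compare annotation classes.

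Chromatoid bodies collect RNA of round spermatids, and the CB comparison addressed whether the RNA held in them differs without Smg6. CB libraries were made from total RNA with another protocol, so their levels are not set against those of the cells. All members were detected in every CB library, and Sycp2 had the highest CPM, with 464, 557, 381 and 535 in CB CTRL and 447, 429.6 and 418 in CB cKO (log2 fold change -0.17, adjusted p = 0.503). These groups overlapped. Of the members, 3 were lower in CB cKO and none was higher, beside 18.4% and 18.1% of the 14051 genes tested (36.6% in all). The count of higher members was also 0 at an unadjusted p of 0.05 in edgeR and with DESeq2. None was past a log2 fold change of 1.5 in edgeR, where 5.64% of all genes were lower and 5.69% higher.

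Rec8 had 96.7, 96.0, 97.9 and 77.5 CPM in CB CTRL and 59.2, 37.3 and 46.4 in CB cKO (log2 fold change -0.94 ± 0.19, adjusted p = 0.00203). Syce2 had 58.0, 41.1, 78.7 and 55.4 CPM against 39.7, 22.1 and 20.4 (-1.08 ± 0.27, adjusted p = 0.00705). Sycp1 had 188, 222, 175 and 185 CPM against 157, 123 and 78.8 (-0.69 ± 0.22, adjusted p = 0.0245). For these genes alone among the members every cKO library was below every CTRL library or the reverse, beside 39.7% of all genes. The calls of Rec8 and Syce2 held without any 1 library. That of Sycp1 was lost without CB CTRL library 1 (-0.70, adjusted p = 0.0521) or 2 (-0.61, 0.0640), or without CB cKO library 2 (-0.70, 0.0537) or 3 (-0.44, 0.0890).

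Syce3, with 13.6, 9.32, 21.3 and 14.3 CPM against 8.46, 10.1 and 9.11, missed the threshold (-0.66 ± 0.28, adjusted p = 0.081) and passed without CB CTRL library 2 (-0.82, adjusted p = 0.0322). The genes that were higher in RS cKO did not pass in CB, with Sycp3 at -0.08 (adjusted p = 0.803), Tex12 at 0.20 (adjusted p = 0.736), Hormad1 at -0.26 (adjusted p = 0.452) and Hormad2 at -0.19 (adjusted p = 0.604), and Syce1 was at 0.15 (adjusted p = 0.534). Their groups overlapped, and whether the effect in CB differs from that in RS was not tested. The members' median was -0.23 against 0.07 for all genes, or -0.08 with library size alone, where the share of higher genes among all calls fell from 49.6% to 38.1%. Late spermatid markers summed to 2468 to 5200 CPM in CB CTRL and 515 to 587 in CB cKO, all 10 lower, and round spermatid markers to 468 to 555 and 204 to 247, with 6 of 7 lower. Leydig markers summed to 16.1 to 61.3 and 45.8 to 427, all 6 higher, Sertoli markers to 23.5 to 35.2 and 29.4 to 90.2, with 3 of 5 tested higher, and macrophage markers to 10.8 to 18.5 and 13.8 to 70.9, with 2 of 4 tested higher. The somatic sums were uneven among the cKO libraries, with medians of 288 for Leydig, 79.7 for Sertoli and 69.1 for macrophage markers. Early prophase markers summed to 24.9 to 32.2 and 30.7 to 90.7, 2 of 5 higher, and spermatogonial markers to 18.5 to 24.7 and 23.8 to 61.7, 2 of 4 tested higher. The part of these markers in the member values was not tested, and 1 Sertoli marker was at 0 throughout CB cKO.

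Of the 32 member transcripts, 29 were tested in CB. None was higher by edgeR or DESeq2 and 7 were lower, beside 17.8% and 18.1% of all transcripts, with a median of -0.37 against 0.05. They were 3 of Syce2 (-1.06 to -1.07), 2 of Rec8 (-0.90 and -1.25) and 2 of Sycp1 (-0.999 and -0.58). Only 3 were lower without CB cKO library 2, and 2 without library 3.

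**Figure D5:**
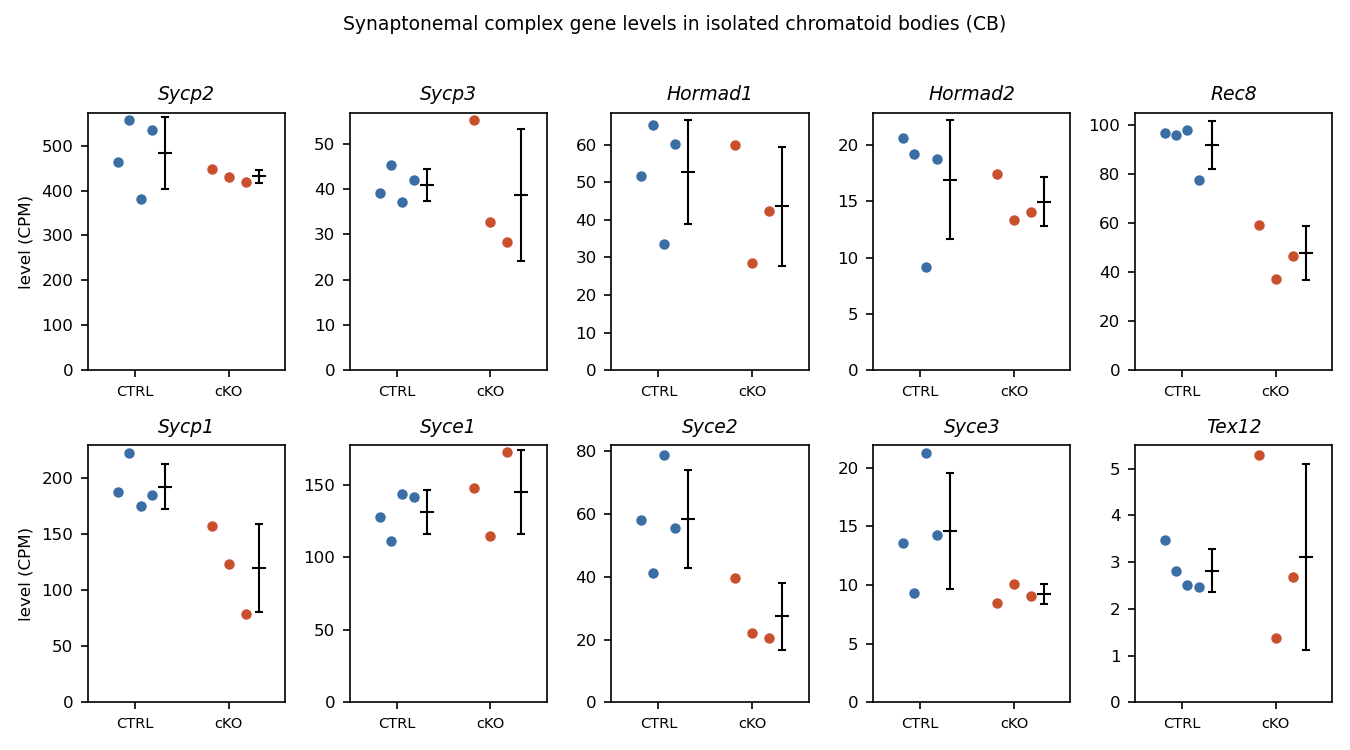
Level of each synaptonemal complex gene in the 4 CTRL and 3 cKO chromatoid body libraries, in CPM on linear axes from 0, with TMM scaling over the 7 libraries. Points are libraries (CTRL blue, cKO red), and the bars beside them are group means ± SD. The groups are apart for Rec8, Syce2 and Sycp1.

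Other genes of the pathway were taken from 3 lists of partners. Their counts stand beside the shares of all genes in the same comparison. In RS against Spc in CTRL these were 36.2% higher and 39.7% lower and in cKO 18.9% and 26.4%, and in cKO against CTRL they were 14% and 14.1% in Spc, 38.4% and 34.3% in RS and 18.1% and 18.4% in CB. The first held 9 genes, of cohesin subunits, axis proteins and 1 further central element protein. Between Spc CTRL and RS CTRL, 3 of them rose and 3 fell, from Smc3, a cohesin core subunit (log2 fold change 1.22), to 4930447C04Rik, that central element gene, also called Six6os1 (-1.68). In cKO against CTRL, 2 were higher and 0 lower in Spc (4930447C04Rik 0.59, adjusted p = 0.0221, and the meiotic cohesin gene Stag3 0.32, adjusted p = 0.0162). In RS 5 were higher and 3 lower, from the meiotic kleisin gene Rad21l (1.78, adjusted p = 0.00708) to Rad21, its mitotic counterpart (-0.69, adjusted p = 0.000437). In CB 1 of 8 tested was higher, the cohesin gene Smc1a (1.61), and 4 were lower, by most Ccdc36, the axis gene of double-strand break formation also called Iho1 (-0.97).

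The second list held 6 genes that attach telomeres to the nuclear envelope in prophase. From Spc to RS, 5 were lower and none higher by edgeR, in CTRL and in cKO alike, and the largest fall in CTRL was that of 1700123I01Rik, also called Majin (-1.97). In cKO, 2 were higher in Spc (Ccdc155, or Kash5, 0.48 and Ccdc79, or Terb1, 0.35), 3 were higher and 1 lower in RS (1700123I01Rik 0.64 and Sun1 -0.59) and 1 was higher in CB (Ccdc155 1.09). The third list held 9 synapsis and crossover genes, of which 7 were tested. In CTRL, 1 was higher in RS than in Spc (Tex11 0.66) and 3 were lower (by most Ccnb1ip1, a crossover regulator, -3.14). In cKO against CTRL, the MutS homolog gene Msh5 was the 1 gene higher in Spc (0.99), 5 were higher in RS, from the helicase gene Hfm1 (0.33) to Ccnb1ip1 (1.38), and in CB Msh5 was higher (0.78) and Hfm1 lower (-0.64).

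The members fell into patterns that can be described across the 12 Spc and RS libraries, which form 4 groups, so that the values below mostly reflect differences between groups. Log2 CPM of Sycp2 and Hormad1 had a Pearson r of 0.994 with each other, and Syce2 had 0.977 with Syce3 and 0.929 with Rec8, whereas Sycp2 had -0.943 with Rec8. Over 12986 genes, the gene outside the list with the highest r to Sycp2 was Shprh (0.997), to Hormad1 Orc2 (0.998) and to Tex12 Supt16 (0.997). For Syce2 it was Hsdl2 (0.997), for Syce3 Ints12 (0.990) and for Rec8 Mas1 (0.997). Sycp3 was nearest to Psmg3 (0.995), Hormad2 to Noc3l (0.993), Syce1 to Rpl30 (0.989) and Sycp1 to Magi3 (0.970). These are the highest of many values and carry no test.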

How the data were processed

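The 10 members and the gene lists were chosen with earlier results of these data known. Raw counts per gene, 24411 rows, were deposited by the authors, who used cutadapt 2.8 for trimming, STAR 2.7.1a for alignment to GRCm38 and TEtranscripts for counting by strand. Estimated counts per transcript, 110379 rows, were made by the authors with featureCounts 2.0.1, each pair divided equally among the transcripts it fits, and were rounded to whole numbers here. These versions are those of the submitters' processing notes, and the methods of the study name other releases of STAR and featureCounts for these libraries. Names of 98% of transcripts were in GENCODE. The authors' own comparison used DESeq2 and no value of it was used here.

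Genes with 10 counts (transcripts 20) in at least 3 libraries were kept and fitted over the whole table, with the gene rows alone, in edgeR 4.0.16 (R 4.3.3): TMM scaling, quasi-likelihood test, Benjamini-Hochberg adjustment, passing at 0.05. Each comparison used its own groups, and the interaction all 12 Spc and RS libraries. Groups of the Spc and RS libraries came from the sample titles. The 7 columns of each CB table were placed in CTRL or cKO by their names, and were not tied to single samples because their numbers do not match those of the titles. Where labels do not tie libraries to separate animals, p-values measure the spread between libraries. Named genes were the members, Smg6, the extremes of each list among genes that passed, and the gene most like each member. Alternatives were DESeq2 1.42.0, other scaling and filters, elements fitted with genes, transcript counts summed per gene, a replicate block and leaving out each library. The script was tested on simulated counts in which 200 genes changed by 2 on the log2 scale, so recovery of smaller changes was not measured. It recovered from 66.5% of the changed genes in the interaction to 87% in CB. The share of false genes among those called ran from 4.4% in CB to 8.74% in cKO against CTRL in Spc. Transposable element rows, small RNA data and reads per exon were not analysed here.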

Additional observations from a re-analysis of the deposited data

Results flagged for a closer look

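A test of the difference between cell types passed for 7 members, as effect of cKO in RS minus effect in Spc on the log2 scale (edgeR quasi-likelihood test). The values were 0.88 for Hormad2, 0.62 for Hormad1, 0.59 for Sycp3 and 0.58 for Sycp2, which stood higher in RS cKO than in RS CTRL, and -1.74 for Syce2, -1.18 for Syce3 and -0.46 for Syce1, which stood lower there. With library size alone as the scale, the sign of Syce1 turned and Syce3 no longer passed (-0.46, adjusted p = 0.109).

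In the chromatoid body controls, a group of 4 libraries, 1 library stood apart from the other 3 by Dixon's criterion in 2 of the 10 genes. The lowest Hormad2 value was 9.15 CPM, in CTRL library 3, and the lowest Rec8 value was 77.5 CPM, in CTRL library 4. Chance gives about 1 such case in 20 groups. Leaving out either library did not change the call of its gene.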

How the results depend on the processing

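With library size alone as the scale, Syce1 turned to 0.26 in RS cKO against CTRL, as did its transcript (0.25), and to -0.34 in RS against Spc in CTRL, and the difference between genotype effects turned to 0.24 for Syce1 and 0.64 for Sycp1. On that scale Sycp1 passed as higher in RS cKO (0.68, adjusted p = 0.000361), and Syce3 lost its call in the difference of effects (-0.46, adjusted p = 0.109). That scale also gave 2 members higher and 5 lower in RS against Spc in cKO, where TMM gave 1 and 7, and 7 positive and 1 negative in the difference of effects, where TMM gave 4 and 3. The main fits did not pair libraries by replicate number, and no comparison had correlations over 0.1 for every number. The values were 0.204, -0.248 and 0.368 in Spc. In RS against Spc in cKO they were -0.0868, 0.595 and 0.354, and replicates 2 and 3 correlated best with their own number. With 3 libraries per group, these correlations cannot tell whether libraries of the same number share animals. A replicate block gave 2 members higher in RS against Spc in cKO, with Syce2 gaining the call (0.42, adjusted p = 0.0107), a call for Syce3 in Spc (-0.61, adjusted p = 0.0391) and 1 member transcript higher in Spc, where 4 were without the block. For CB, no paired analysis was possible because the numbers in its column names do not match those of the titles. The CB control columns were named either MCTRL or MVHCTRL and the cKO columns MKO, and the labels do not explain these names. Fits with the MCTRL controls only, which leave fewer controls, and fits without Rn45s were added after seeing the data. With the MCTRL controls only, Sycp1 had an adjusted p of 0.103.

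Leaving out 1 library at a time gave 0 to 1 members higher and 0 to 2 lower in Spc, 1 to 2 higher and 5 to 6 lower in RS against Spc in cKO, 1 to 4 member transcripts higher and 0 to 6 lower in Spc, and 2 to 9 lower in CB. Under left-out libraries 404 values of single members stayed on their side of the threshold, 21 lost a call and 5 gained one. The 404 include values that changed sign without passing, such as Sycp3 in Spc (0.05, and -0.05 at the lowest). Under the other settings 406 stayed on their side of the threshold, 11 lost a call, 9 gained one and 4 turned sign and passed. The 406 also include sign changes without a call, such as Syce1 in Spc (-0.02, and 0.02 at the highest). The causes of these changes were not tested. The lowest member level (Tex12 in CB cKO library 2, 1.38 CPM) rested on 3 counts.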
